A study of Danio rerio with 6 samples.

Results

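The stress sensor genes of the Gadd45 family were followed in dissected guts of larval zebrafish (Danio rerio). The 6 names were the Gadd45 paralogs gadd45aa, gadd45ab, gadd45ba, gadd45bb and gadd45ga, and gadd45gip1, which is named for a partner protein of GADD45. They were matched by gene symbol from a count table of 15419 genes, which held a row for 5 of the 6. Of these 5, 4 had counts and all 4 entered the test across 11095 genes. The names were chosen by symbol with earlier results of this same comparison known. The values of WT against mutant are therefore given as a description, without a p-value for any member.

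Gadd45 proteins are small nuclear proteins with no enzyme activity of their own. They act by binding others, and in mammals their partners include the kinase MTK1 (MAP3K4), which feeds the p38 and JNK stress kinases, the cell cycle proteins PCNA, p21 and the CDK1 and cyclin B complex, and enzymes of DNA demethylation. Their transcripts are induced quickly by stress, GADD45A classically after DNA damage, GADD45B by NF-kB and TGF-beta, and GADD45G by cytokines. Zebrafish carry duplicate copies of several of these genes, here marked by a second letter. Gadd45gip1, known as CRIF1 in mammals, is a separate protein that sits in the large subunit of the mitochondrial ribosome.

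The 6 libraries were bulk mRNA from guts of larvae at 5 days post-fertilization, each pooling 10 to 15 guts. There were 3 wild-type (WT, AB background) libraries and 3 from il26-/- larvae, labelled il26KO, which carry a CRISPR/Cas9 deletion in the gene of the cytokine IL-26. The larvae came from clutchmate WT and il26-/- parents kept in separate tanks, so that genotype and parental tank cannot be told apart here. The titles call the libraries biological replicates, and nothing else in the labels says how separate the pools were.

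Total counts ranged from 23247771 to 27225697 in WT and from 15693057 to 28303340 in il26KO. Every pair of libraries differed by more than sampling noise, with a chi-square per degree of freedom of 24.4 to 50.7 within WT, 16.6 to 33.6 within il26KO and 15.9 to 47.7 between genotypes. This statistic also grows with depth. WT replicate 1 was farthest from the other WT libraries, at 50.7 and 50.6, and nearest to il26KO replicate 2, the library with the fewest counts. No library had a count for il26, the targeted gene, and it therefore gave no check of the genotypes. Summed levels of 12 gut epithelium markers were 26437 to 33884 CPM (counts scaled to library size) in WT and 29350 to 31042 CPM in il26KO. Their most abundant gene was apoa4b.1, and epcam, a defining epithelial gene, was listed at 0 throughout. Markers of exocrine pancreas summed to 37503 to 60478 CPM, of liver to 9129 to 20804 CPM and of skeletal muscle to 1894 to 4453 CPM over the 6 libraries, and in each of these lists the genotypes overlapped. Leukocyte markers summed to 101.4 to 116 CPM, with mpeg1.1 at 0. Of 9 tested erythroid genes, 3 were lower in il26KO at an unadjusted edgeR p below 0.05, against 2.51% of all genes tested. The erythroid markers summed to 66.6 to 125 CPM in WT and 52.8 to 68.3 CPM in il26KO. Any part of these other tissues in the Gadd45 values was not tested. In bulk tissue, more cells of a type and more transcript per cell cannot be told apart.

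The widest difference between genotypes lay in gadd45ab, a copy of the DNA damage-responsive Gadd45a. It had 447, 578 and 576 counts in WT replicates 1, 2 and 3 and 1776, 948 and 1601 counts in il26KO replicates 1, 2 and 3. After TMM scaling of the library sizes, these were 18.2, 21.3 and 24.1 CPM in WT and 80.6, 60.6 and 56.5 CPM in il26KO. The groups did not overlap, and the lowest il26KO library was at 2.35 times the highest WT library. Means were 21.2 ± 2.96 CPM for WT and 65.9 ± 12.9 CPM for il26KO (SD, n = 3 each), with a fitted log2 fold change of 1.64 ± 0.16 (SE), or 3.11-fold. Of 11095 tested genes, 11 had a higher log2 fold change.

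Its duplicate gadd45aa had nearly the same level in both genotypes. It had 24.4, 26.7 and 23.1 CPM in WT replicates 1 to 3 and 26.6, 24.9 and 29.0 CPM in il26KO replicates 1 to 3, with 389 to 821 counts behind each value. The groups overlapped, and the fitted log2 fold change was 0.12 ± 0.090 (SE). The number of gadd45ab counts per gadd45aa count, a ratio that needs no scaling between libraries, was 0.744, 0.797 and 1.04 in WT and 3.04, 2.44 and 1.95 in il26KO. How the counting shared reads between close copies was not stated, so the values of single paralogs carry that uncertainty. Summed over the pair, the a copies reached 45.9 ± 2.93 CPM for WT and 92.7 ± 12.6 CPM for il26KO (SD, n = 3 each), and these groups did not overlap either.

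**Figure D1:**
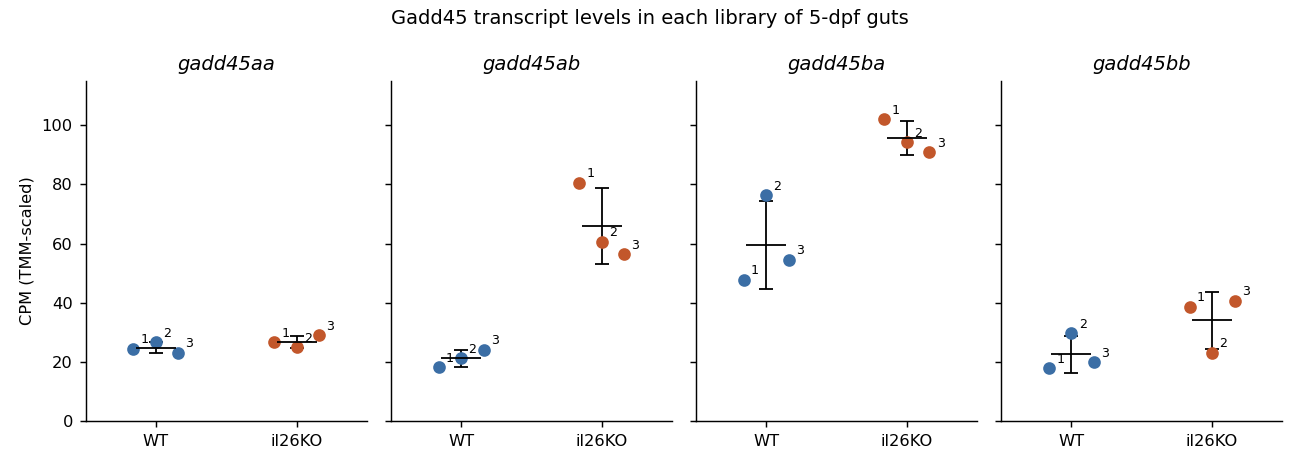
Level of the 4 counted Gadd45 genes in CPM (TMM-scaled) for each library, with the replicate number beside each point and the mean ± SD of 3 libraries as bars. In gadd45ab every il26KO library lies above 56 CPM and every WT library below 25 CPM, while WT replicate 2 lies nearest to the il26KO libraries in gadd45ba and between them in gadd45bb.

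The Gadd45b copies, related to the NF-kB-responsive mammalian GADD45B, were higher on average in il26KO by less, and WT replicate 2 stood apart from the other WT libraries in both. For gadd45ba there were 47.8, 76.3 and 54.5 CPM in WT replicates 1 to 3 and 102, 94.3 and 90.9 CPM in il26KO replicates 1 to 3. The groups did not overlap, but the lowest il26KO library was only at 1.19 times WT replicate 2. The log2 fold change was 0.68 ± 0.16 (SE), or 1.61-fold. It was 0.91 when WT replicate 2 was left out and 0.54 when WT replicate 1 was left out.

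For gadd45bb there were 17.9, 29.8 and 19.8 CPM in WT replicates 1 to 3 and 38.6, 23.1 and 40.7 CPM in il26KO replicates 1 to 3. Here the groups overlapped, since il26KO replicate 2 lay below WT replicate 2. The log2 fold change of gadd45bb was 0.61 ± 0.25 (SE), and it was 0.86 without WT replicate 2 and 0.80 without il26KO replicate 2. It was lower without each other library, down to 0.46 without WT replicate 1. WT replicate 2 was at 1.49 times the mean of the other WT libraries for gadd45ba and at 1.58 times for gadd45bb, against 1.01 times for gadd45ab and 1.12 times for gadd45aa. In il26KO replicate 2, the library with the fewest counts, gadd45bb was at 0.582 times the mean of the other il26KO libraries, while gadd45ba was at 0.977 times. The b copies thus kept a near constant ratio in WT, with 0.374, 0.390 and 0.363 gadd45bb counts per gadd45ba count, and a wider one in il26KO, with 0.379, 0.245 and 0.448.

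The third branch of the family was hardly counted. The row of gadd45ga, a copy of the cytokine-induced Gadd45g, held 0 counts in all 6 libraries, where 3 counts would be 0.106 to 0.192 CPM. The second Gadd45g copy, gadd45gb.1, was not on the list of names and is given for completeness. It had 8, 4 and 4 counts in WT and 8, 2 and 1 counts in il26KO, too few to be tested. A listed 0 cannot be read as absence in this table. Of 306 genes of the pathway and marker lists that had a row, 15 were at 0 in every library, among them cdk1, the kinase that drives mitosis, epcam, and oxa1l and 4 genes for mitochondrial ribosomal proteins. The gene gadd45gip1 had no row under that symbol in the count table, so it could not be analysed.

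Added up, the Gadd45 counts without gadd45gip1 came to 109, 154 and 122 CPM in WT replicates 1 to 3 and 248, 203 and 217 CPM in il26KO replicates 1 to 3. It averaged 128 ± 23.5 CPM for WT and 223 ± 23.2 CPM for il26KO (SD, n = 3 each), a ratio of 1.74. Of the difference, gadd45ab contributed 44.7 CPM, gadd45ba 36.2 CPM, gadd45bb 11.7 CPM and gadd45aa 2.04 CPM. The make-up of the pool differed as well. The share of gadd45ab was 13.8% to 19.8% in WT and 26.0% to 32.5% in il26KO, and the nearest libraries of the genotypes had 95% Wilson intervals of 18.4% to 21.3% and 24.9% to 27.1%. These intervals take each read as independent and leave out the spread between libraries. Since PCR copies are not independent molecules, the intervals can be too narrow even for counting error. The share of gadd45aa was 17.3% to 22.5% in WT and 10.7% to 13.3% in il26KO. This follows from its nearly equal level in a larger pool and is no separate difference. The shares of gadd45ba and gadd45bb overlapped between genotypes. Since transcript lengths were not used, these shares compare libraries and give no order of abundance between genes.

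**Figure D2:**
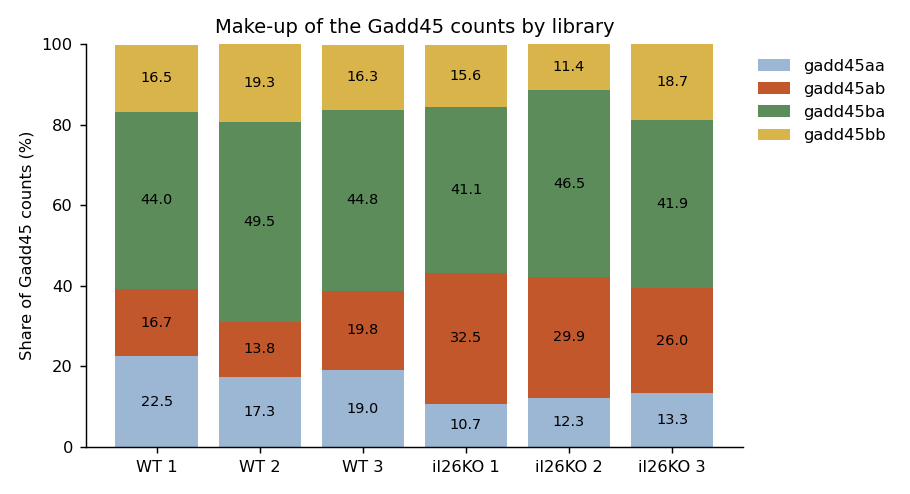
Share of each paralog in the Gadd45 counts of each library, in percent of counts, with the value printed in each block. The gadd45ab block spans 13.8% to 19.8% in the WT libraries and 26.0% to 32.5% in the il26KO libraries. The counts of gadd45gb.1 are part of the total and too few to show.

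Replicates spread unequally among the paralogs. In WT, the coefficient of variation was 7.28% for gadd45aa, 13.96% for gadd45ab, 25.1% for gadd45ba and 28.4% for gadd45bb, beside a median of 7.25% over 6153 tested genes above 10 CPM. In il26KO, it was 7.67%, 19.6%, 5.98% and 28.2% in the same order, beside a median of 7.31%. The b copies were thus among the more variable genes in WT, where 94.3% of those 6153 genes varied less than gadd45ba and 95.4% less than gadd45bb. For gadd45ab this share was 82.4% in WT and 92.1% in il26KO, so it too was among the more variable genes. In il26KO the share was 96.7% for gadd45bb and 37.9% for gadd45ba. The transcript gadd45aa varied about as much as the median gene in both genotypes.

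In the edgeR quasi-likelihood fit over all genes, 12 of 11095 genes (0.108%) had an adjusted p below 0.05, and gadd45ab was 1 of them. It was the only member called. Groups that did not overlap with il26KO higher were found for 2 of the 4 tested members, gadd45ab and gadd45ba, and for 5.94% of all genes, and for 0 members with il26KO lower, against 4.91% of all genes. Because the members were chosen on this comparison, these shares say nothing further about them. The call of gadd45ab was lost without WT replicate 1, 2 or 3, at log2 fold changes of 1.53, 1.64 and 1.74, and was kept without il26KO replicate 1, 2 or 3, at 1.45, 1.68 and 1.74. Both DESeq2 and the likelihood ratio test of edgeR called gadd45ba in addition, among 83 and 93 genes in all. The sign was positive for all 4 genes in each of the 12 alternative fits, and the range was 1.45 to 1.74 for gadd45ab, 0.54 to 0.91 for gadd45ba, 0.46 to 0.86 for gadd45bb and 0.055 to 0.17 for gadd45aa.

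**Figure D3:**
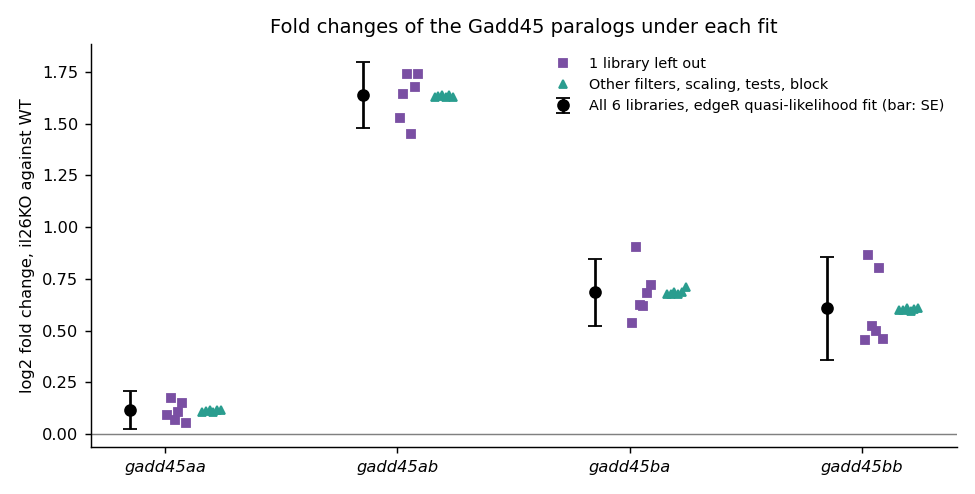
Log2 fold change of il26KO against WT for each paralog, from the fit to all 6 libraries (circle with SE), the 6 fits that each left out 1 library (squares) and the 6 other fits (triangles). Leaving out a library moved gadd45ba between 0.54 and 0.91 and gadd45bb between 0.46 and 0.86, whereas gadd45aa stayed below 0.18.

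The genes whose profiles over the 6 libraries lay nearest to gadd45ab were sought next, by the root mean square difference of log2 CPM after centring each gene on its mean. The 5 nearest of 11091 genes were cishb at 0.18, socs1a at 0.22, mych at 0.23, nr1d2a at 0.27 and klf9 at 0.27 log2 units. Few reads stood behind cishb, with 35, 40 and 34 counts in WT and 126, 52 and 106 counts in il26KO. Among genes above 10 CPM, a limit set after seeing the data, cishb dropped out and the other 4 stayed. For comparison, gadd45ba lay at 0.51 from gadd45ab, gadd45bb at 0.62 and gadd45aa at 0.79. The suppressors of cytokine signalling cishb and socs1a, which restrain JAK and STAT signals, had log2 fold changes of 1.57 ± 0.23 and 1.59 ± 0.18 (SE). The Myc homolog mych had 75.4, 80.4 and 74.9 CPM in WT replicates 1 to 3 and 225, 178 and 151 CPM in il26KO replicates 1 to 3, so that il26KO replicate 1 was the highest library, as in gadd45ab. The clock nuclear receptor nr1d2a and klf9, a known target of the glucocorticoid receptor, had log2 fold changes of 1.52 ± 0.30 and 1.81 ± 0.31 (SE). In klf9 the il26KO libraries were far apart, with 226, 90.6 and 125 CPM in replicates 1 to 3 against 36.3, 41.0 and 48.5 CPM in WT. Likeness over 6 libraries of 2 genotypes includes the difference between genotypes itself, and all these genes shared the libraries and their scaling. They were chosen by this likeness, so an order of libraries shared with gadd45ab is no further result.

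The 5 profiles nearest to gadd45ba were il1fma, sobpa, lrrc61, nova1 and fstl5, at 0.072 to 0.13 log2 units. All had means below 1.3 CPM in both genotypes, so few reads stood behind them. Among the 6149 genes above 10 CPM, a limit set after seeing this, the nearest were pik3r1, cebpa, klf2b, srsf3a and ddit4, at 0.17 to 0.20 log2 units. The gene pik3r1, a regulatory subunit of phosphoinositide 3-kinase, had 203, 231 and 221 CPM in WT replicates 1 to 3 and 359, 303 and 319 CPM in il26KO replicates 1 to 3. The stress-induced mTOR inhibitor ddit4 had 6.54, 13.5 and 10.5 CPM in WT and 20.8, 19.6 and 16.7 CPM in il26KO. In both, WT replicate 2 was the highest WT library, as in gadd45ba. Both were chosen by likeness to gadd45ba over these libraries, so this shared order is no further result.

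**Figure D4:**
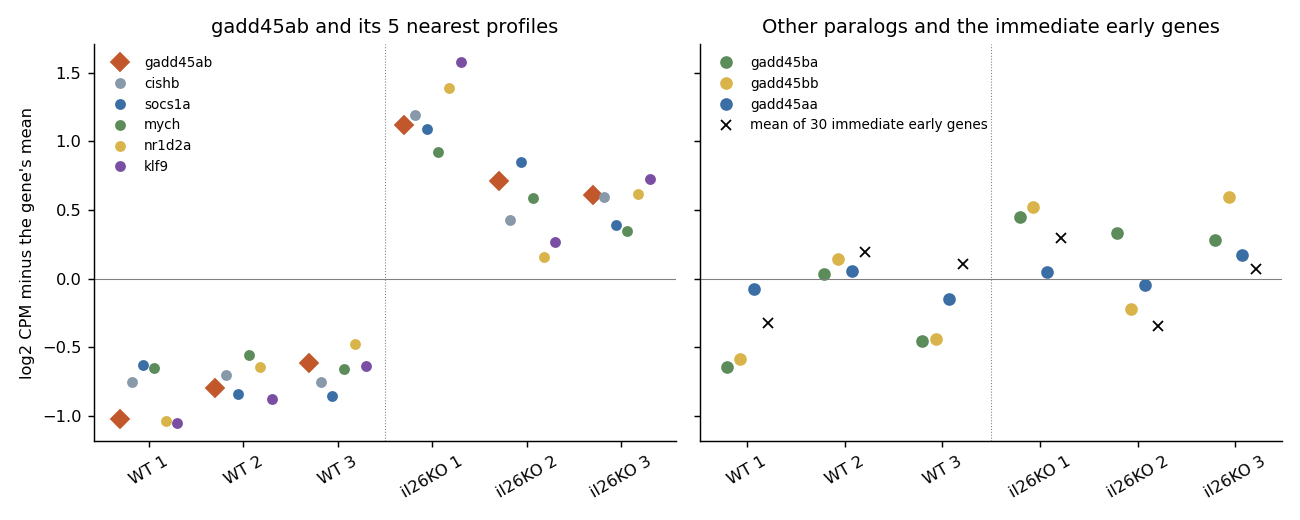
Log2 CPM of each gene minus its mean over the 6 libraries, for gadd45ab with its 5 nearest profiles (left) and for the other paralogs with the mean of 30 immediate early genes (right). On the left every WT point lies below 0 and every il26KO point above 0, in genes chosen for their likeness to gadd45ab. On the right the immediate early mean is lowest in il26KO replicate 2 and WT replicate 1, where gadd45bb is also below 0.

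Immediate early genes, which respond within minutes to handling or stimulation, were set beside the paralogs library by library. The mean of 30 such genes on the centred log2 scale was -0.32, 0.20 and 0.10 in WT replicates 1 to 3 and 0.30, -0.35 and 0.072 in il26KO replicates 1 to 3. It was low in WT replicate 1 and il26KO replicate 2, the libraries with the lowest gadd45bb of their genotype, and highest of its genotype in WT replicate 2, where both b copies were high. The match was partial. In WT replicate 3 gadd45bb lay at -0.44 on the same scale, within il26KO it was highest in replicate 3 and the immediate early mean in replicate 1, and gadd45ba was not low in il26KO replicate 2. The AP-1 subunit fosab, picked after its values were seen, showed the same libraries, with 11.01, 21.9 and 15.5 CPM in WT and 24.7, 3.71 and 15.4 CPM in il26KO. Not every gene of the list did so. Within il26KO, dusp6 was highest in replicate 2, atf3 was lowest in replicate 1 and egr1 was lowest in replicate 3. Within WT, atf3 was lowest in replicate 3. These genes too were named after their values were seen. Any part of the immediate early pattern in the Gadd45b values was not tested. Of 30 tested immediate early genes, 0 were called by the quasi-likelihood test. Of this list, DESeq2 and the likelihood ratio test each called only dusp6, among 83 and 93 of 11095 genes in all. At an unadjusted p below 0.05, 6 were higher and 2 lower, against 3.52% higher and 2.51% lower over all genes. The widest differences were in egr2a, at a log2 fold change of -0.80 ± 0.28, and in socs3a, at 0.78 ± 0.25 (SE). Of these, egr2a rested on few reads, with 32, 47 and 45 counts in WT and 26, 9 and 28 counts in il26KO. The median of the list was 0.014, beside 0.011 over all genes tested. Of 17 tested heat shock genes, 0 were called by any of these 3 tests. At an unadjusted p below 0.05, 0 were higher and 2 lower, against 3.52% and 2.51% over all genes. These 2 were serpinh1b and dnajb1b, at -0.76 ± 0.20 and -0.34 ± 0.14 (SE).

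The partners of Gadd45 were then described from lists of genes. Among 21 tested transcription factors and feedback genes that act upstream of GADD45 in mammals, 2 rose and 0 fell at an adjusted p below 0.05. Over all 11095 genes tested, 7 rose and 5 fell at this threshold (0.108%). The 2 list genes were Myc genes, which repress GADD45A in mammals. The log2 fold change was 1.26 ± 0.14 for mych and 0.79 ± 0.098 for myca (SE; edgeR adjusted p = 0.0280 and 0.0408). For myca there were 25.8, 26.7 and 30.2 CPM in WT and 52.9, 44.8 and 44.96 CPM in il26KO. When a library was left out, mych was called only without il26KO replicate 1 or 3, and myca was called in none of the 6 fits. Of the other Myc genes tested, mycb stood at 0.86 ± 0.14 (SE) and did not pass (edgeR adjusted p = 0.133). The last, mycn, named after its value was seen, went the other way at -0.26 ± 0.14 (SE), and its groups overlapped. DESeq2 and the likelihood ratio test each called mych, myca and mycb and no other gene of this list. They called 83 and 93 of 11095 genes in all. The Myc genes were on the list with their values known, so the counts and the median of this list partly follow from that choice. At an unadjusted p below 0.05, 7 genes of this list were higher and 0 lower, against 3.52% higher and 2.51% lower over all genes. Besides mych, myca and mycb, these were cebpa, foxo3b, nfkbiab and nfkbiaa, with log2 fold changes from 0.26 to 0.45. Of these, nfkbiaa and nfkbiab encode NF-kB inhibitors that NF-kB itself induces. The tested NF-kB subunit genes rela, nfkb2 and rel lay at -0.11 ± 0.12, -0.13 ± 0.18 and 0.090 ± 0.12 (SE), with overlapping groups. They were named after their values were seen. The median of the list was 0.10.

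The integrated stress and unfolded protein responses, which induce GADD45A and DDIT3 in mammals, gave 0 calls among 26 tested genes in the quasi-likelihood test. DESeq2 and the likelihood ratio test each called 5 of them, among 83 and 93 of 11095 genes in all. Of these 5, chac1, ddit4, slc3a2b and trib3 were higher in il26KO and nupr1b lower. At an unadjusted p below 0.05, 5 were higher and 3 lower, against 3.52% higher and 2.51% lower over all genes. The glutathione-degrading enzyme chac1 had 107, 195 and 163 CPM in WT and 414, 234 and 298 CPM in il26KO, and nupr1b, a stress-induced nuclear protein gene, had 779, 653 and 555 CPM in WT and 285, 370 and 372 CPM in il26KO. Their log2 fold changes were 1.03 ± 0.26 and -0.95 ± 0.15 (SE; edgeR adjusted p = 0.385 and 0.127). The list was thus divided, since trib3, slc3a2b and ddit4 lay at 0.53 to 0.90 while ddit3 and asns lay at -0.37 and -0.38, and atf4a at 0.060 ± 0.078 (SE). These 6 genes were named after their values were seen. The median of the list was -0.054.

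Downstream of Gadd45, the kinases of the p38 and JNK pathways showed little difference in transcript level. Their activity was not measured. Of 15 tested genes, 0 had an unadjusted p below 0.05, against 6.03% of all genes. By the quasi-likelihood test, DESeq2 or the likelihood ratio test, 0 of the 15 were called. The log2 fold changes ran from -0.31 to 0.27 with a median of -0.048. Groups did not overlap for mapk8a, a JNK gene that was higher, and for map2k7 and the p38 gene mapk14b, which were lower, and these were named after their values were seen. Over all genes, groups stood apart in this way for 5.94% with il26KO higher and 4.91% with il26KO lower. The direct partner map3k4 had no row under that symbol and could not be analysed. The same held for map3k1, map2k3, mapk9, mapk13 and atf2 of this list.

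Among 16 tested cell cycle partners, 0 were called by any of the 3 tests. At an unadjusted p below 0.05, 1 was higher and 1 lower, against 3.52% higher and 2.51% lower over all genes. The inhibitor cdkn1bb was lower, at a log2 difference of -0.23 ± 0.086 (SE), and the mitotic kinase aurka was higher, at 0.62 ± 0.26 (SE). The latter rested on 21 to 44 counts a library and its groups overlapped. The inhibitor cdkn1a (p21), a direct binding partner of Gadd45, had 27.1, 25.8 and 9.40 CPM in WT and 30.6, 12.02 and 11.1 CPM in il26KO, and the genotypes overlapped. The median of the list was 0.16, with 11 of 16 genes above 0, beside 53.2% of all genes tested. This median depended on single libraries, at 0.020 without WT replicate 1 and 0.26 without WT replicate 3. The mean of the list by library overlapped between genotypes, from -0.20 to 0.11 in WT and from -0.042 to 0.12 in il26KO on the centred log2 scale. Among 10 tested partners in DNA demethylation and excision repair, 0 were called by any of the 3 tests, and the median was 0.057. At an unadjusted p below 0.05, 1 was higher, the maintenance methyltransferase dnmt1, against 3.52% higher over all genes.

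For the setting of Gadd45gip1, 41 genes of the mitochondrial large ribosomal subunit were tested and 0 were called by any of the 3 tests. At an unadjusted p below 0.05, 0 were higher and 2 lower, against 3.52% higher and 2.51% lower over all genes. The 2 lower genes were mrpl9, at a log2 fold change of -0.39 ± 0.092 (SE), and mrpl4, at -0.19 ± 0.078 (SE). Groups did not overlap for 1 gene with il26KO higher and 8 with il26KO lower, against 5.94% and 4.91% of all genes. Of the 41 genes, 30 had a negative and 11 a positive log2 fold change, where 53.2% of all genes tested were positive, and the median was -0.070. The mean of the list by library overlapped between genotypes, from -0.020 to 0.097 in WT and from -0.069 to -0.0044 in il26KO on the centred log2 scale.

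**Figure D5:**
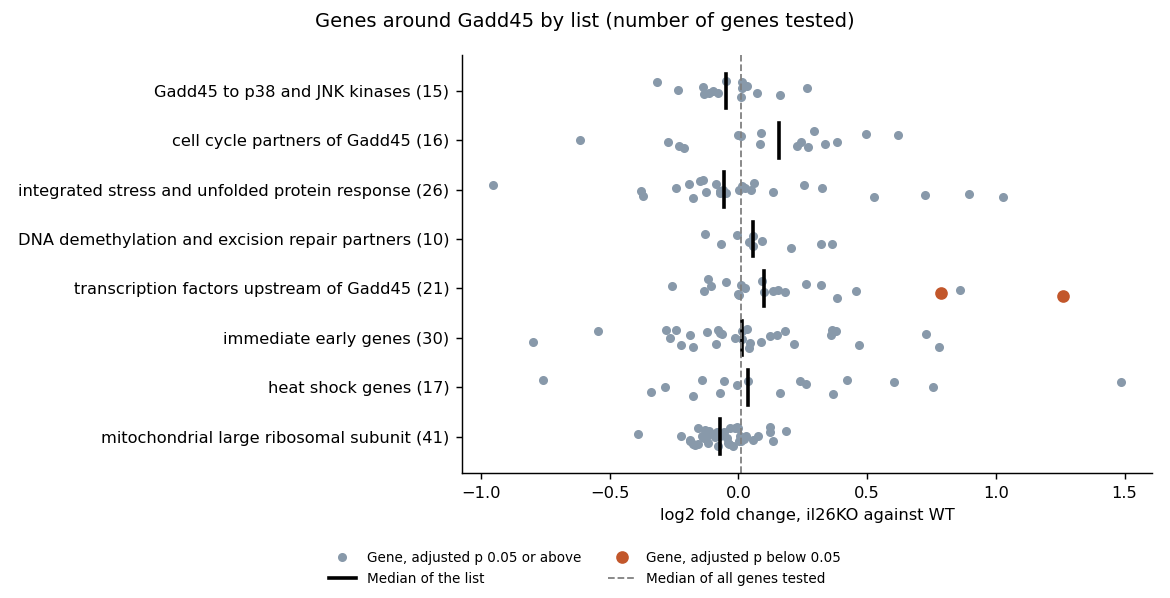
Log2 fold change of il26KO against WT for each tested gene of 8 lists, with the median of each list (black bar), the median of all genes tested (dashed line at 0.011) and genes with an adjusted p below 0.05 in orange. The 2 orange points are myca and mych, and the list medians lie between -0.070 and 0.16.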

How the data were processed

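The authors deposited raw counts per gene symbol, without normalization, for 6 libraries (stranded, poly(A)-selected, paired-end 100 bp reads aligned to danRer11). The aligner, the counting tool, its annotation, strand setting and rule for shared reads were not given in the sources used here. Columns were assigned to samples by the library name in the labels, and 0 further columns of per-sample values were present.

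Genes passing filterByExpr of edgeR 4.0.16 (R 4.3.3; minimum count 10, minimum total 15) were scaled by TMM and compared with the quasi-likelihood test with genotype as the only factor, as a two-sided test with Benjamini-Hochberg adjustment over 11095 genes and a threshold of 0.05. The study named edgeR without stating its test. The SE of a log2 fold change was its size divided by the square root of F. Log2 CPM used a prior count of 2. Library depth of 15693057 to 28303340 counts sets a floor of 0.106 to 0.192 CPM for 3 counts. The p-values set the difference between genotypes against the spread between these libraries and cover no other source of variation.

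Alternatives were median-of-ratios (RLE) size factors, other filters, DESeq2 1.42.0, the likelihood ratio test, each library left out in turn and the replicate number as a block. The members and lists were chosen with earlier results of these data known. Genes named were the members, called list genes, up to 2 further genes of each list with an unadjusted p below 0.05 and groups that did not overlap, and the 5 nearest profiles of gadd45ab and gadd45ba. The results of 1 further list are not reported here, and its genes count among the list genes in the totals given. The fits were tested on simulated data. Other genes named beside small counts, and cdkn1a, fosab, atf3, egr1 and atf4a, were named after their values were seen. In the RefSeq gene order (GRCz12tu), 0 of the 4 tested members were within the closest 100 tested neighbours of il26. The untested gadd45ga and gadd45gip1 could not appear among these neighbours.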

Additional observations from a re-analysis of the deposited data

How the results depend on the processing

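The quasi-likelihood test called 12 genes in all, 1 Gadd45 gene and 2 genes of the lists. DESeq2 called 83, 2 and 9, and the likelihood ratio test 93, 2 and 9. Leaving out each library in turn gave 3 to 8 genes, 0 or 1 Gadd45 gene and 0 or 1 list gene. Where it gave 0 Gadd45 genes, without WT replicate 1, 2 or 3, the log2 fold change of gadd45ab was 1.53, 1.64 and 1.74. RLE size factors and both other filters left 1 Gadd45 gene and 2 list genes. With the replicate block, 2 genes, 0 Gadd45 genes and 0 list genes were called by edgeR, with a log2 fold change of 1.63 for gadd45ab. In that fit, 626 of 11095 genes had an unadjusted p below 0.05, 29 list genes among them. Deviations of same-numbered libraries correlated at -0.23, -0.043 and 0.11, and 2 of 6 libraries correlated best with their own number, so the numbers were not taken to pair them. The cause of these changes in count was not tested. The Gadd45 pool ratio was 1.73 under RLE or plain library totals. The nearest profiles kept all 5 genes with a prior count of 0.5 or RLE sizes. Restricted to genes above 10 CPM, an alternative chosen after seeing the data, 4 of 5 were shared for gadd45ab and 0 of 5 for gadd45ba. Few counts limit gadd45gb.1, and gadd45ga had none, so no comparison was possible for either.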
